A study of Mus musculus with 7 samples.

Results

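The 4 mature miRNAs described here are the arms of a pair of related hairpins of the mouse miR-290 cluster: mmu-miR-291a-5p, mmu-miR-291a-3p, mmu-miR-291b-5p and mmu-miR-291b-3p. They were taken by name from a table of 1078 miRNA loci, and each had 1 row. Flag-tagged Ago2 was put into mouse embryonic stem cells that had no Argonaute proteins of their own and was pulled down by its tag, and the small RNAs that came with it were sequenced. Each of 7 groups had 1 library: wild-type Ago2 (WT), the mutants GKT_GKGT, PGKTP_AAAAA, K566A, R792A_C793A and Q548A, and an empty control (labelled control genotype) that went through the same pull-down. The miRNA counts do not show the mutations themselves, and the labels do not say how strongly each Ago2 was expressed or whether a line came from a single clone. Every comparison below is of 2 libraries, with no replicate check and no p-value, and the intervals cover counting error only.

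A microRNA hairpin is cut into a short duplex whose strands, the 5p and the 3p arm, can each be taken up by Argonaute as a guide. Usually a single strand is kept, and the series asks, by its title, what part Argonaute itself plays in that choice. The MID domain of Ago2 holds the 5' end of the guide, and K566 and Q548 lie in it. The GKT_GKGT and PGKTP_AAAAA labels name changes to the loop of that domain that faces the first base of the guide, while R792 and C793 lie in the PIWI domain. The miR-290 cluster dominates the miRNAs of mouse embryonic stem cells, and its 3p arms with an AAGUGC core are known for speeding the cell cycle and holding the pluripotent state.

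The sequences of the arms are shown because their first base and seed are what the mutated pocket and the targets meet. They are the mature sequences of RefSeq (GRCm38.p6), written 5' to 3', with the seed (bases 2 to 8) in capitals. The last line is the 3p arm of miR-294, which differs from miR-291a-3p at 3 bases.
miR-291a-5p: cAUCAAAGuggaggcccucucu
miR-291b-5p: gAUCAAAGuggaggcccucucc
miR-291a-3p: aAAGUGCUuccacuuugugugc
miR-291b-3p: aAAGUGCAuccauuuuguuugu
miR-294-3p: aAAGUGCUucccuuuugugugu

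The 5p arms of miR-291a and miR-291b were identical at 20 of 22 bases and shared their seed. Counted from 1 at the 5' end, with the base of miR-291a first, they differed by C1G and U22C. miR-291a-5p therefore begins with C and miR-291b-5p with G. The 3p arms were identical at 18 of 22 bases and both begin with A. Their differences were U8A, C13U, G19U and C22U, and the first of these changes the last base of the seed. miR-291a-3p shares its seed with miR-294-3p and miR-295-3p. In the duplex that RNAcofold predicts from the mature arms, all 4 of the first 4 bases of miR-291a-5p were paired, against 2 of the first 4 of miR-291a-3p. For miR-291b these were 1 of 4 on the 5p arm and 2 of 4 on the 3p arm. The predicted energies were -21.3 kcal/mol for miR-291a and -14.2 kcal/mol for miR-291b. On chromosome 7 (mm9, as deposited) the miR-291a arms span 3218933 to 3218990 and the miR-291b arms 3219495 to 3219551, on either side of miR-292. RefSeq lists them as separate miRNA genes, Mir291a and Mir291b.

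The Ago2 libraries held 14914050 counts (K566A) to 94842502 counts (WT), and the empty control 33461. The 4 arms together made up 1.05% (Q548A) to 1.71% (GKT_GKGT) of the counts of an Ago2 library. Levels are counts per 1000000 (CPM), and the dominant miR-292-5p moves this scale: it took 63.7% of counts in WT but 21.7% in K566A, and 57.3% to 70.5% in the other mutants. Scaling by the median of ratios would shift the log2 level ratios against WT by -0.84 in K566A, -0.36 in R792A_C793A, 0.18 in GKT_GKGT and 0.62 in PGKTP_AAAAA. The ratio of the arms within a hairpin does not depend on library size. As markers of the labelled cell type, the other 10 arms of the miR-290 cluster made up 57.8% to 78.9% of Ago2 libraries. The stem-cell miRNAs miR-302a-3p to miR-302d-3p and miR-367-3p summed to 441 (PGKTP_AAAAA) to 5303 CPM (K566A). Fibroblast-type miRNAs (8 of 8 in the table) summed to 1286 (PGKTP_AAAAA) to 8926 CPM (K566A). Those of differentiated tissues (9 of 10 in the table, with 1 at 0 in every Ago2 library) summed to 95.2 (WT) to 490 CPM (K566A). All 3 sums were highest among the Ago2 libraries in K566A, and their part in the levels below was not tested. In such pooled cells, fewer cells of a type and less RNA per cell cannot be told apart.

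The arms of miR-291a changed places between the libraries. In WT the 3p arm was the larger, with 613520 counts against 478449 for the 5p arm, so that the 5p arm made up 43.8% of the hairpin (exact binomial 95% interval 43.7 to 43.9). The 5p share was 40.0% in Q548A (39.9 to 40.1), 23.4% in R792A_C793A (23.3 to 23.5) and 16.2% in K566A (16.0 to 16.3). In the loop mutants it was 70.3% in PGKTP_AAAAA (70.1 to 70.5) and 93.5% in GKT_GKGT (93.4 to 93.5). The 3p arm thus led in WT and in the K566A, Q548A and R792A_C793A mutants, and the 5p arm led in the GKT_GKGT and PGKTP_AAAAA mutants. The empty control had 114 and 166 counts and a 5p share of 40.7% (34.9 to 46.7), an interval that holds the WT value.

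**Figure D1:**
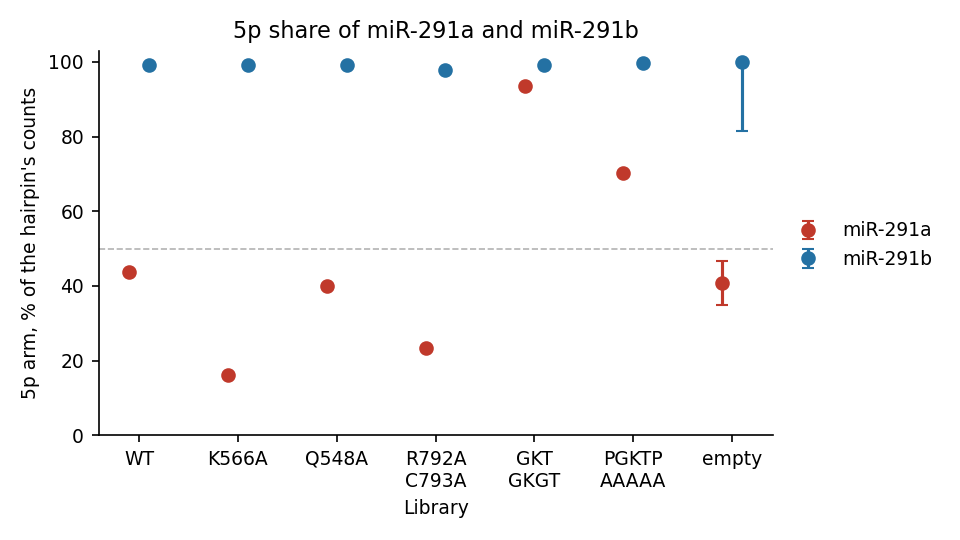
The share of the 5p arm (% of the counts of the hairpin, vertical axis) in each of the 7 libraries for miR-291a (red) and miR-291b (blue), with exact binomial 95% intervals, most of them smaller than the points. miR-291a runs from 16.2% in K566A to 93.5% in GKT_GKGT, while miR-291b stays at 97.9% or more.

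Against WT, the 5p/3p ratio of miR-291a was 18.4 times higher in GKT_GKGT (log2 change 4.20, 95% interval 4.19 to 4.21) and 3.03 times higher in PGKTP_AAAAA (1.60, 1.59 to 1.61). It was 4.05 times lower in K566A (-2.02, -2.03 to -1.998) and 2.56 times lower in R792A_C793A (-1.35, -1.36 to -1.34). In Q548A the change was -0.23 (-0.23 to -0.22), which did not reach 2-fold. A change was called when its whole interval lay past 2-fold, and by that rule miR-291a was called in each mutant library except Q548A. Over all 407 hairpins tested, the same rule called 29.0% in GKT_GKGT, 24.3% in PGKTP_AAAAA, 38.6% in K566A, 19.9% in R792A_C793A and 9.09% in Q548A.

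Since these comparisons share the WT library, the mutants were also set against each other. For miR-291a the counting interval of the difference left out 0 in all 15 pairs of Ago2 libraries, and 13 pairs were past 2-fold. The pairs that were not past it were Q548A with WT and R792A_C793A with K566A (0.66 in log2, 0.64 to 0.68). GKT_GKGT exceeded PGKTP_AAAAA 6.06-fold (2.60 in log2) and K566A 74.4-fold (6.22). PGKTP_AAAAA exceeded Q548A by 1.83 in log2 and R792A_C793A by 2.95. The order of 5p/3p ratios, from high to low, was GKT_GKGT (14.3), PGKTP_AAAAA (2.36), WT (0.780), Q548A (0.667), R792A_C793A (0.305) and K566A (0.193).

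Both arms of miR-291a moved, in opposite directions, in GKT_GKGT. miR-291a-5p stood at 5045 CPM in WT, 14687 in GKT_GKGT, 7195 in PGKTP_AAAAA, 2110.0 in K566A, 2909 in R792A_C793A, 3758 in Q548A and 3407 in the empty control. It was the 20th most abundant of 950 miRNAs in WT, the 5th in GKT_GKGT and the 44th in K566A. Neighbours in that order of levels did not overlap in their Poisson 95% intervals, among the Ago2 libraries. miR-291a-3p stood at 6469 CPM in WT, 1024 in GKT_GKGT, 3043 in PGKTP_AAAAA, 10945 in K566A, 9536 in R792A_C793A, 5638 in Q548A and 4961 in the empty control. It was lowest in the loop mutants, and it fell from the 17th most abundant miRNA in WT to the 47th in GKT_GKGT. The sum of the arms varied less, from 9396 CPM in Q548A to 15711 CPM in GKT_GKGT around 11513 CPM in WT, and no mutant was past 2-fold for it.

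In log2 against WT, miR-291a-5p in GKT_GKGT rose by 1.54 (1.54 to 1.55) and miR-291a-3p was at -2.66 (-2.67 to -2.65), past 2-fold lower. In PGKTP_AAAAA miR-291a-3p fell by 1.09 and miR-291a-5p was at 0.51. With median-of-ratios scaling the first was at -0.46 and no longer past 2-fold, and the second was at 1.14 and past it. In K566A miR-291a-5p fell by 1.26 (-2.10 with that scaling), while miR-291a-3p was at 0.76, or -0.08 with that scaling. In R792A_C793A the 5p arm was at -0.79, not past 2-fold (-1.16 and past it with that scaling), and the 3p arm at 0.56. In Q548A they were at -0.42 and -0.20.

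**Figure D2:**
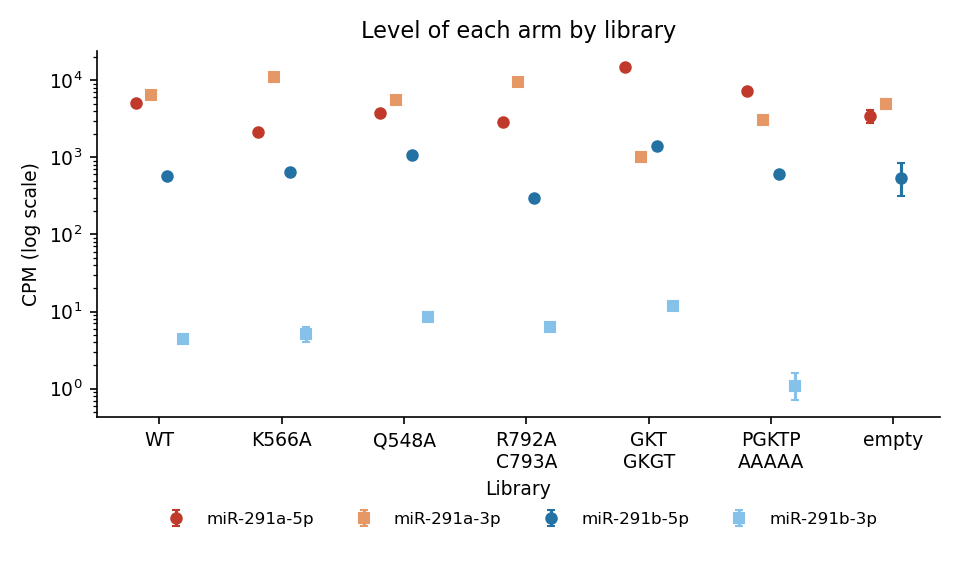
Level of each arm in CPM (log axis) in the 7 libraries, with Poisson 95% intervals. The red circles of miR-291a-5p lie above the orange squares of miR-291a-3p only in GKT_GKGT and PGKTP_AAAAA; miR-291b-3p had no counts in the empty control and has no point there.

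miR-291b kept to its 5p arm in every library. That arm had 53816 counts in WT against 418 for the 3p arm, a 5p share of 99.2% (99.2 to 99.3). The share was 99.2% in K566A, Q548A and GKT_GKGT as well, 97.9% in R792A_C793A (97.7 to 98.1) and 99.8% in PGKTP_AAAAA (99.7 to 99.9). The 18 counts of the empty control were all 5p, with an exact interval of the 5p share from 81.5% to 100% (3 counts of its total would be 16.7%). Seen from the 3p arm, it made up 0.771% of the hairpin in WT, 0.787% in K566A, 0.784% in Q548A and 0.834% in GKT_GKGT. It was at 2.09% in R792A_C793A and 0.176% in PGKTP_AAAAA, the libraries that stood apart. Some of the 5p counts may be reads shared with miR-291a-5p, and their part in these shares was not tested.

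The 5p/3p ratio of miR-291b was therefore 2.75 times lower than in WT in R792A_C793A (log2 change -1.46, -1.67 to -1.25) and 4.33 times higher in PGKTP_AAAAA (2.12, 1.58 to 2.76). The latter rests on 27 counts of the 3p arm. These were its only called changes. In GKT_GKGT, where miR-291a had its largest change, miR-291b was at -0.11 (-0.30 to 0.07), and it was at -0.04 (-0.39 to 0.34) in K566A and -0.02 (-0.20 to 0.15) in Q548A. Of the 15 pairs of Ago2 libraries, the interval left out 0 in 9, and each of these had R792A_C793A or PGKTP_AAAAA in it. WT, K566A, Q548A and GKT_GKGT could not be ordered by their intervals.

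Set directly against miR-291b, the log2 change of miR-291a was higher by 4.31 in GKT_GKGT (4.13 to 4.50), lower in K566A (difference -1.99, -2.34 to -1.63) and slightly lower in Q548A (-0.20, -0.37 to -0.03). In R792A_C793A the hairpins differed by 0.10 (-0.10 to 0.31) and in PGKTP_AAAAA by -0.54 (-1.10 to 0.02), intervals that include 0. These differences carry Woolf's intervals at any count, also with the 27 counts of miR-291b-3p in PGKTP_AAAAA. Without a pseudocount, the change of miR-291b used there was 2.14. The hairpins thus moved apart in GKT_GKGT and K566A, while in R792A_C793A no difference larger than 0.31 in log2 lay within the interval.

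Where the arm ratio of miR-291b did not change, the levels of its arms necessarily moved together, since both are scaled by the same totals. miR-291b-5p stood at 567 CPM in WT, 1413 in GKT_GKGT, 615 in PGKTP_AAAAA, 642 in K566A, 297 in R792A_C793A, 1087 in Q548A and 538 in the empty control. miR-291b-3p stood at 4.41 CPM in WT, 11.9 in GKT_GKGT, 1.08 in PGKTP_AAAAA, 5.10 in K566A, 6.33 in R792A_C793A and 8.60 in Q548A, with 0 counts in the empty control, where 3 counts are 89.7 CPM. In GKT_GKGT the 5p arm was up by 1.32 in log2 (1.30 to 1.33) and the 3p arm by 1.43 (1.25 to 1.61). In Q548A they were at 0.94 and 0.96, just short of 2-fold by the interval rule. In R792A_C793A the 5p arm was at -0.94 (-1.30 and past 2-fold with median-of-ratios scaling) and the 3p arm at 0.52. In PGKTP_AAAAA the 3p arm was down (-2.02, -2.64 to -1.46, or -1.40 and not past 2-fold with that scaling) and the 5p arm at 0.12. In K566A they were at 0.18 and 0.21, or -0.66 and -0.63 with that scaling. In the order of levels of miR-291b-3p, the Poisson intervals of R792A_C793A and K566A overlapped, as did those of K566A and WT.

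Of the 4 arms, 3 passed the minimum mean of 10 CPM for a comparison of levels over all miRNAs, and miR-291b-3p did not. Of these 3, 3 were called in GKT_GKGT (2 higher and 1 lower), 1 in PGKTP_AAAAA (lower), 1 in K566A (lower), and 0 in R792A_C793A and Q548A. Over the 337 miRNAs tested the share called was 22.8% in GKT_GKGT, 40.7% in PGKTP_AAAAA, 67.1% in K566A, 22.6% in R792A_C793A and 6.23% in Q548A. In K566A and PGKTP_AAAAA the arms were thus called no more often than miRNAs at large. The median log2 ratio of all miRNAs was -0.29 in GKT_GKGT, -0.55 in PGKTP_AAAAA, 0.91 in K566A, 0.43 in R792A_C793A and 0.07 in Q548A. That of the 3 arms was 1.32, 0.12, 0.18, -0.79 and -0.20 in the same order.

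By its arm change in GKT_GKGT, miR-291a was second from the top of the 407 hairpins and 6th by size in either direction. Just above it by size was miR-204 (-4.27, whose 3p arm had 7 counts in WT and 34 in the mutant). Just below was a copy of miR-129 (4.19, with 51 counts of the 3p arm in the mutant). Among the 175 hairpins with a mean of at least 100 counts on each arm, a limit set after the values were seen, miR-291a ranked first. Under the same limit it ranked 71 in K566A, 152 in Q548A, 53 in R792A_C793A and 61 in PGKTP_AAAAA. In the other mutants its change was less unusual, at rank 172 by size of 407 in K566A, 335 in Q548A, 136 in R792A_C793A and 181 in PGKTP_AAAAA. Its neighbours by rank were miR-26b (-2.03) and let-7b (2.02) in K566A, miR-152 (-0.23) and miR-205 (0.22) in Q548A, let-7d (-1.36) and miR-669o (-1.35) in R792A_C793A, and miR-505 (-1.61) and miR-423 (1.59) in PGKTP_AAAAA. miR-291b ranked 395 in GKT_GKGT, 402 in K566A, 405 in Q548A, 123 in R792A_C793A and 116 in PGKTP_AAAAA.

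**Figure D3:**
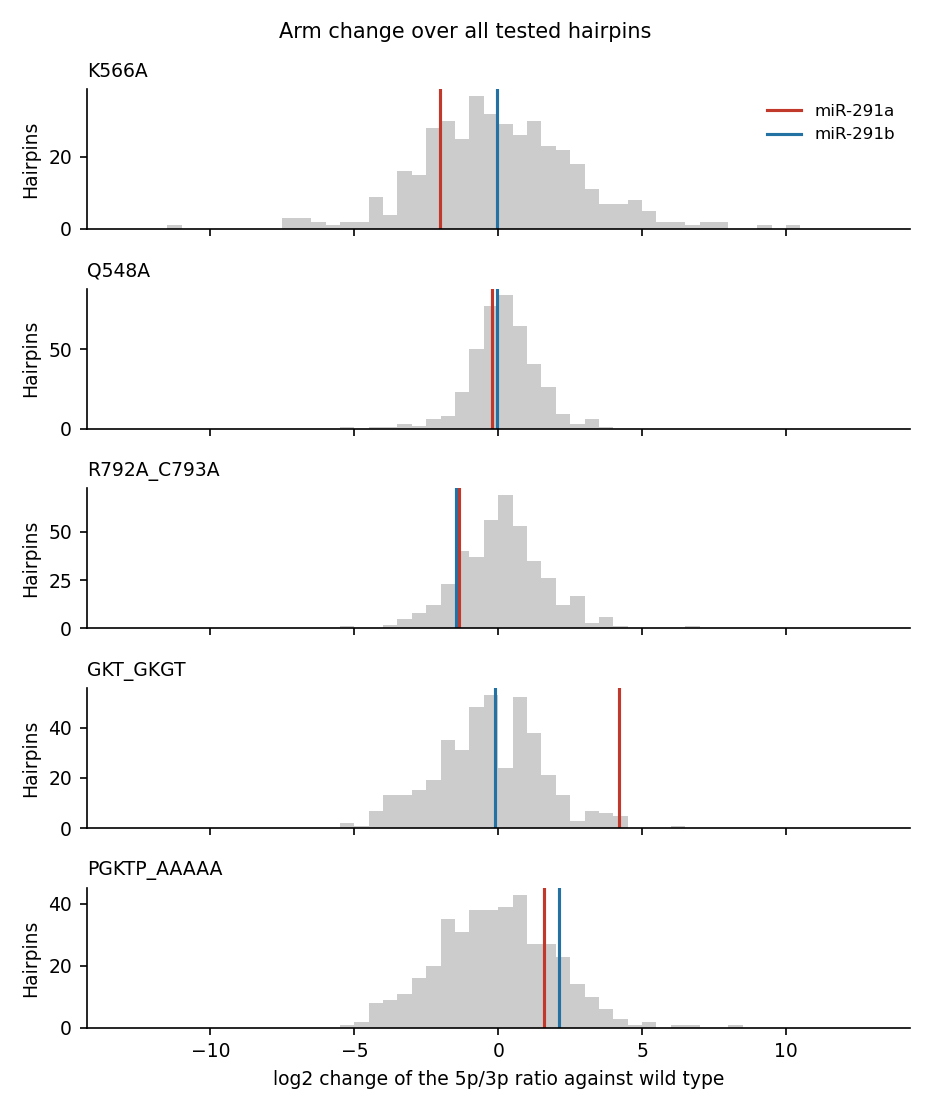
Number of hairpins (vertical axis) by log2 change of the 5p/3p ratio against WT, 1 panel for each mutant, over the 407 tested hairpins (grey bars), with miR-291a in red and miR-291b in blue. In GKT_GKGT the red line stands at 4.20, in the right tail, and the blue line at -0.11, near the middle.

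The 5p arms form a near-identical pair that differs at its first base. miR-291a-5p had 8.89 times the counts of miR-291b-5p in WT (95% interval 8.81 to 8.97). The ratio was 9.80 in R792A_C793A, 10.4 in GKT_GKGT, 11.7 in PGKTP_AAAAA and 6.33 in the empty control (3.83 to 11.1). It was lower, at 3.29 in K566A (3.21 to 3.36) and 3.46 in Q548A (3.43 to 3.48). In log2 against WT these changes were -1.44 in K566A and -1.36 in Q548A, but at most 0.40 in the other mutants. By level, the C-first and the G-first arm thus rose by similar amounts in GKT_GKGT, whose change in their ratio was 0.22 (0.21 to 0.24). For miR-291b this went with the whole hairpin: the sum of its arms rose by 1.32 (1.30 to 1.33), past 2-fold, with its arm ratio at -0.11. For miR-291a the sum rose by 0.45, not past 2-fold, with its arm ratio at 4.20. The sources used here do not give how reads that fit more than 1 locus were counted, so some reads of this pair of 5p arms may be shared. That their ratio varied across libraries does not show how many reads were shared, since partial sharing does not require a constant ratio.

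The 3p arms of miR-291a and miR-294 begin with A and share the seed. miR-291a-3p had 0.324 times the counts of miR-294-3p in WT. This was 0.272 in Q548A, 0.292 in R792A_C793A, 0.199 in PGKTP_AAAAA, 0.127 in GKT_GKGT and 0.118 in K566A. In GKT_GKGT both arms fell (-2.66 for miR-291a-3p and -1.31 for miR-294-3p), and in K566A miR-294-3p rose by 2.22 (1.38 with median-of-ratios scaling). The ratio of miR-291a-3p to miR-291b-3p was 1468 in WT and 86.2 in GKT_GKGT, a log2 change of -4.09 (-4.27 to -3.91). It was 2148 in K566A, 656 in Q548A, 1506 in R792A_C793A and 2809 in PGKTP_AAAAA. The levels of A-first arms with a shared core therefore differed in how they changed in GKT_GKGT, from -2.66 for miR-291a-3p to 1.43 for miR-291b-3p. The upper end rests on miR-291b-3p, which did not reach a mean of 10 CPM. Its rise went with that of its whole hairpin (1.32), whose arm ratio was at -0.11, so these levels do not compare arm choice alone. The 3p arms of miR-290 (-0.31), miR-294 (-1.31) and miR-295 (-1.22), which also begin with A and hold the core, lay between.

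**Figure D4:**
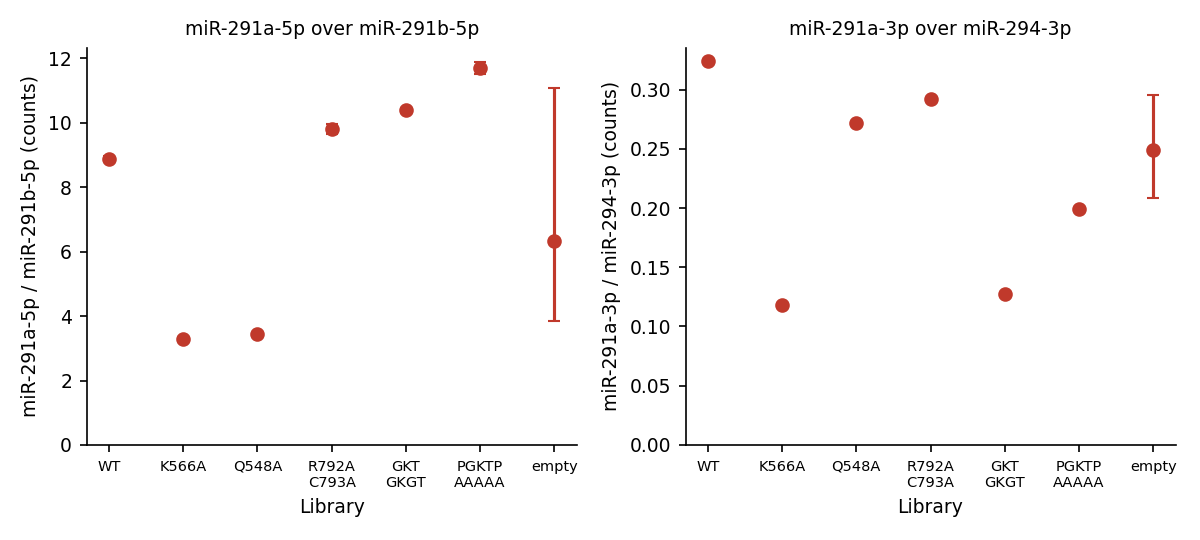
Ratio of counts of miR-291a-5p to miR-291b-5p (left) and of miR-291a-3p to miR-294-3p (right) in the 7 libraries, with exact 95% intervals. The left ratio is lowest in K566A and Q548A (3.29 and 3.46), and the right one in K566A and GKT_GKGT (0.118 and 0.127).

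The rest of the miR-290 cluster was set beside these hairpins. In K566A the 5p/3p ratio was lower past 2-fold in 6 of the 7 hairpins of the cluster, from -1.27 in miR-295 to -4.09 in miR-293, with miR-291b the exception. In GKT_GKGT miR-291a (4.20) and miR-292 (1.51) were higher, miR-290 (-1.84) was lower, and miR-293 (-0.23), miR-294 (-0.36) and miR-295 (0.23) were not past 2-fold. In PGKTP_AAAAA miR-291a and miR-291b were the hairpins called higher, while miR-290 (-1.82), miR-293 (-1.69) and miR-294 (-2.39) were lower. In R792A_C793A miR-294 (-2.14) was lower along with miR-291a and miR-291b. None of the 7 was called in Q548A. Of all 407 hairpins tested, 82 were lower and 75 higher in K566A, 73 and 45 in GKT_GKGT, 56 and 43 in PGKTP_AAAAA, 35 and 46 in R792A_C793A, and 12 and 25 in Q548A.

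The change of miR-291a minus that of each other cluster hairpin had a counting interval that left out 0 in 28 of 30 comparisons, the exceptions being those with miR-291b in R792A_C793A and PGKTP_AAAAA. In GKT_GKGT the differences ran from 2.69 (miR-292) to 6.04 (miR-290). In PGKTP_AAAAA, against the 5 hairpins other than miR-291b, they ran from 0.96 (miR-292) to 3.995 (miR-294). In K566A the ratio of miR-291a was lowered less than that of miR-293 (difference 2.07), miR-294 (1.37), miR-292 (0.50) and miR-290 (0.33), and more than that of miR-295 (-0.75). RefSeq gives A as the first base of each other arm of the cluster with a sequence in its table, which leaves miR-291a-5p (C) and miR-291b-5p (G) as the arms that begin otherwise.

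**Figure D5:**
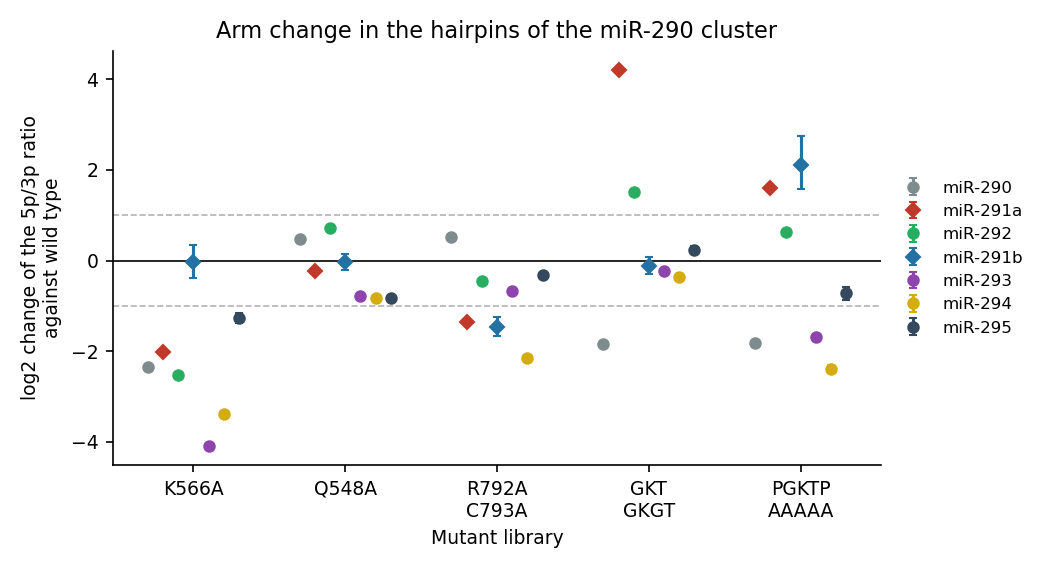
log2 change of the 5p/3p ratio against WT (vertical axis) for the 7 hairpins of the miR-290 cluster in the 5 mutants, with 95% counting intervals and dashed lines at 2-fold. miR-291a (red diamond) is the highest hairpin in GKT_GKGT at 4.20, and miR-291b (blue diamond) the only one within 2-fold in K566A.

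By level, the 10 other arms of the cluster had 0 members higher and 5 lower in GKT_GKGT, 0 and 4 in PGKTP_AAAAA, 4 and 3 in K566A, 1 and 1 in R792A_C793A, and 0 and 0 in Q548A. Of all 337 miRNAs tested, 37 were higher and 40 lower in GKT_GKGT, 24 and 113 in PGKTP_AAAAA, 160 and 66 in K566A, 53 and 23 in R792A_C793A, and 6 and 15 in Q548A. In GKT_GKGT the log2 ratios of the 10 arms ran from -2.15 (miR-290-5p) to 0.15 (miR-292-5p), with a median of -1.10 against -0.29 for all miRNAs. miR-291a-5p, miR-291b-5p and miR-291b-3p, which rose, were thus the arms of the cluster that were higher past 2-fold in that library. The stem-cell miRNAs miR-302a-3p to miR-302d-3p carry the AAGUGC core of the 3p arms, and 3 of these 4 passed 10 CPM. These were higher in K566A (median 3.40, with miR-302b-3p at 3.41 and 2.57 with median-of-ratios scaling), and 0 of 3 were called in any other mutant. In K566A 160 of all 337 miRNAs were higher, with a median of 0.91. In GKT_GKGT the median of the miR-302 arms was -0.05, against -2.66 for miR-291a-3p.

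Hairpins with the same first bases on their arms were counted next, from the 249 tested hairpins for which RefSeq gave both sequences. A C-first arm faced an A-first arm in 29, as in miR-291a. In GKT_GKGT the arm with C, set against the arm with A, was above its WT ratio in 25 of 29, with a median log2 change of 1.67 and a range of -1.31 to 4.20, the top of which was miR-291a. In PGKTP_AAAAA it was above in 22 of 29, with a median of 1.58, and miR-291a ranked 14th. In K566A and R792A_C793A the medians were 0.20 and 0.19, and miR-291a, at -2.02 and -1.35, ranked 26th and 27th from the top of the 29. In Q548A the C-first arm was above its WT ratio in 14 of 29, with a median of -0.08 and miR-291a 17th. A G-first arm faced an A-first arm in 14 hairpins, as in miR-291b. In GKT_GKGT the log2 change of the G-first arm was above 0 in 11 of 14, with a median of 1.27, and miR-291b, at -0.11, ranked 12th. It was above 0 in 8 of 14 in PGKTP_AAAAA (median 0.81), with miR-291b 5th at 2.12. It was above 0 in 5 of 14 in K566A (median -0.66) and in Q548A (median -0.22), and in 7 of 14 in R792A_C793A (median 0.02), where miR-291b was the lowest. In the 26 hairpins with A on both arms, the 5p/3p change was above 0 in 9 in GKT_GKGT (median -0.30) and in 12 in PGKTP_AAAAA (median -0.34). Over all 407 tested hairpins the median 5p/3p change was -0.34 in GKT_GKGT and -0.08 in PGKTP_AAAAA. Signs in this class follow 5p over 3p and not the first base, so they cannot be read against those of the other classes. The 29 include miR-291a itself and the 14 include miR-291b. No share over all hairpins was computed in the direction of C or G over A, so these counts stand without a background. Hairpins with other first bases, such as C against U, were not summed up. All these counts of hairpins take any change above 0, whether past 2-fold or not. Some of these hairpins have few counts, and the comparisons share the WT library.

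The miRNAs whose levels were most like those of the arms were sought among the 149 whose CPM, averaged over the 6 Ago2 libraries, reached 100. Levels in these libraries were compared as log2(CPM + 1), and the values share library size and the weight of miR-292-5p. For miR-291a-5p they were miR-28-3p (Pearson r = 0.95), miR-99b-3p (0.93) and miR-129-5p (0.81), and the same 3 came first with median-of-ratios scaling. miR-28-3p stood at 47.0 CPM in WT and 299 CPM in GKT_GKGT. Its mean of 100.1 CPM passed the limit only through GKT_GKGT (60.3 CPM without it), the library where miR-291a-5p is highest too, so that its likeness is given as a description only. miR-99b-3p stood at 389 and 842 CPM. For miR-291a-3p they were miR-381-3p (0.97), miR-205-5p (0.94) and miR-296-5p (0.90), but miR-295-3p (0.86), miR-296-5p (0.83) and miR-292-3p (0.79) with that scaling. For miR-291b-5p the nearest was miR-370-3p at 0.62 (0.79 with that scaling), followed by miR-363-5p (0.56) and miR-28-3p (0.56).

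By arm ratio, the hairpins most like miR-291a over the 6 libraries, of 255 with at least 100 counts on each arm summed over those libraries, were miR-378 (r = 0.98), a copy of miR-24 (0.98) and miR-499 (0.96). The 5p share of miR-378 was 11.4% in WT, 51.3% in GKT_GKGT, 19.1% in PGKTP_AAAAA, 4.82% in K566A, 8.09% in R792A_C793A and 7.61% in Q548A. It was thus highest in the same libraries as in miR-291a, GKT_GKGT and PGKTP_AAAAA, from a lower start. The copy of miR-24 moved between 0.0407% (K566A) and 0.422% (GKT_GKGT), and miR-499 between 99.0% and 100% (GKT_GKGT). For miR-291b the nearest were a copy of miR-26a (0.85), miR-3091 (0.78) and miR-205 (0.78). The 5p share was 0% for miR-3091 in K566A, 100% for miR-205 in PGKTP_AAAAA and 100% for miR-499 in GKT_GKGT. An arm thus had no counts in these cases, and the ratio there depends on the pseudocount. miR-291b itself had only 27 counts of its 3p arm in PGKTP_AAAAA. The likenesses of these hairpins are given as a description only.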

How the data were processed

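Raw read counts per mature miRNA locus were deposited by the authors in 1 table, 1 column per library, not normalized. CASAVA 1.8.2, TopHat2 2.0.9 and build mm9 are named in the submitters' processing notes; the sources used here do not give the counting program, the miRNA annotation release, the use of strand, or how reads with more than 1 match were counted.

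Each mature name was counted once, by its highest locus, and 9 names whose counts equalled another's (within 1% or 3 counts, sum of at least 200) were merged, which left 950 miRNAs. CPM used their total. Arms of 1 name within 150 nt on a chromosome formed a hairpin (copies with equal counts were kept once), and 407 hairpins with at least 100 counts over the 6 Ago2 libraries were tested. Ratios carry exact conditional 95% intervals, or Woolf's where all 4 counts reached 500. Log2 arm ratios used a pseudocount of 0.5. The differences in arm change between miR-291a and the other cluster hairpins used Woolf's intervals at any count and no pseudocount. Mature sequences matched by name for the arms shown; miR-290 and miR-292-5p were matched through RefSeq's synonyms miR-290a and miR-292a. Tools were numpy 2.4.6, pandas 2.3.3, scipy 1.17.1 and ViennaRNA 2.7.2.

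The named miRNAs were the 4 arms, the other arms of the cluster, miR-302a-3p to miR-302d-3p, those most like in pattern (3 per arm or hairpin), those within 3 bases of an arm, and rank neighbours. Members and lists were chosen with earlier results of these data known. Alternatives were median-of-ratios scaling, a total without miR-292-5p, subtraction of the empty control, summed arms, a pseudocount of 5, other fold limits, other count limits and every locus kept.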

Additional observations from a re-analysis of the deposited data

How the results depend on the processing

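Of 185 values set against the alternatives, 148 kept their direction and their side of the limit (or, for counts, stayed within 1.5 times), and 7 changed sign. The 148 include settings that could not change a sign, since other fold limits change only the call and not the value. The sign changes came from median-of-ratios scaling (3), a total without miR-292-5p (3) and summed arms (1). Subtracting the empty control (levels and arm ratios) and a pseudocount of 5 (arm ratios) changed no call of the 4 arms or the pair of hairpins. Neither setting could readily change one, so neither tests the part of background. The empty counts were subtracted unscaled and were at most 166 for an arm (miR-291a-3p). The intervals that decide a call for an arm ratio do not use the pseudocount. Keeping every locus and hairpin minimums of 1 or 1000 counts were run only for the numbers of calls over all features, which stayed within 1.5 times. In K566A, 3 levels that were not called changed sign: miR-291a-3p to -0.081 with median-of-ratios scaling and -0.35 with a total without miR-292-5p, miR-291b-5p to -0.66 and -0.93, and miR-291b-3p to -0.63 and -0.90. With the arms of miR-291a and miR-291b summed, the change was that of the more abundant miR-291a: 4.16 in GKT_GKGT, opposite in sign to miR-291b alone, and -1.79 in K566A, past 2-fold. Median-of-ratios scaling took 2 levels out of the calls, both in PGKTP_AAAAA: miR-291a-3p (-0.46) and miR-291b-3p (-1.40). It brought in miR-291a-5p in PGKTP_AAAAA (1.14) and in R792A_C793A (-1.16), and miR-291b-5p in R792A_C793A (-1.30). A total without miR-292-5p brought in the last 2 as well (-1.03 and -1.17) and took out miR-291a-3p in PGKTP_AAAAA (-0.83).

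A limit of 1.5-fold added 5 levels: miR-291a-3p in K566A (0.76), miR-291b-5p (0.94) and miR-291b-3p (0.96) in Q548A, and miR-291a-5p (-0.79) and miR-291b-5p (-0.94) in R792A_C793A. A limit of 4-fold removed 11 calls. For arm ratios these were miR-291a in K566A (-2.02, interval to -1.998), R792A_C793A (-1.35) and PGKTP_AAAAA (1.60), and miR-291b in R792A_C793A (-1.46) and PGKTP_AAAAA (2.12). For levels they were miR-291a-5p in K566A (-1.26) and GKT_GKGT (1.54), miR-291b-5p (1.32) and miR-291b-3p (1.43) in GKT_GKGT, and miR-291a-3p (-1.09) and miR-291b-3p (-2.02) in PGKTP_AAAAA. The arm change of miR-291a in GKT_GKGT stayed past 4-fold. With no filter on low counts the miRNAs called were 147 in GKT_GKGT, 236 in PGKTP_AAAAA, 387 in K566A, 125 in R792A_C793A and 38 in Q548A, since more miRNAs were tested. Without replicates no library could be left out, and depth limits miR-291b-3p (27 to 814 counts) and the empty control.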
